A study of Mus musculus with 2 samples.

Results

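The 10 genes described here were *Fos*, *Fosb*, *Jun*, *Junb*, *Jund*, *Atf3*, *Egr1*, *Ier2*, *Ier3* and *Zfp36*, chosen by name as AP-1 subunits and immediate early genes among the 23154 genes of the count tables, and all 10 had a row. They were measured in PK44 cells, which the study sorted as CD41-CD43-CD45-CD31+CD201+Kit+CD44+ cells, from the yolk sac of mouse embryos at E10.0. There was 1 group, with no treatment and no other genotype, in 2 libraries: replicate 1 held 43 cells and replicate 2 held 44 cells, 87 in all. Cells of good morphology were picked singly with a mouth pipette and profiled by modified STRT-seq, in which an oligo-dT primer gives each cell its barcode and each molecule a unique molecular identifier (UMI). The labels do not say whether the libraries came from separate embryos or pools, so the spread between them may be technical. Replicate 1 had 8932527 counts, from 13218 to 702028 per cell (median 141577), and replicate 2 had 12706360 counts, from 51620 to 956593 per cell. Levels are given as CPM, the counts of a gene per 1000000 counts of the cell or library. At the median depth, 1 count was worth 7.06 and 4.19 CPM in replicates 1 and 2. A molecule gives 1 count whatever its length, so levels of different genes were set side by side without division by length.

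AP-1 is a dimer of basic leucine zipper proteins. Jun proteins pair with each other or with Fos proteins, which need a Jun partner, and the dimers bind TRE and CRE elements in DNA. Immediate early genes need no new protein for their induction: kinase signals act on factors already at their promoters, such as SRF with its Elk partners at CArG boxes and CREB at CRE elements, and the transcripts appear within minutes and decay fast. In endothelium they respond to growth factors and flow, and in cells taken from tissue they also respond to dissociation and handling. *Runx1*, set beside them below, encodes the transcription factor required for the endothelial-to-hematopoietic transition.

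The promoters of *Fos*, *Fosb*, *Junb*, *Atf3*, *Jun* and *Zfp36* are shown around the letters of the elements through which this class of genes is known to be induced. Sequences came from RefSeq on GRCm38.p6, where 8 of the 10 genes were read, *Jund* and *Ier3* being the others, and each window is written on the strand of its gene, with the motif in capitals. The CRE core TGACG, on either strand, was found in the promoters of 4 of these 8 genes and in 20.8% of 32851 promoters of the same length. Its windows lay at chr12:85473804-85473848 on the plus strand for *Fos*, and on the minus strand at chr7:19310081-19310125 for *Fosb*, chr8:84978830-84978874 for *Junb* and chr1:191183334-191183360 for *Atf3*, where the capitals are the core on the opposite strand, 2 bases before the start site.
Fos: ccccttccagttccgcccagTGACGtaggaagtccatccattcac
Fosb: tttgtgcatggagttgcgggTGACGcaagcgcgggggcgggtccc
Junb: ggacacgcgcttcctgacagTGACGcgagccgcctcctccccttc
Atf3: ggaagctattaatagcattaCGTCAgc
The 8-letter TGACNTCA was found in *Jun* (chr4:95052240-95052287, minus strand) and in 8.83% of all promoters, and a match with G at the open position would also count for the core. The CArG box was found in *Zfp36* (chr7:28379257-28379306, minus strand) and in 1.63% of all promoters.
Jun: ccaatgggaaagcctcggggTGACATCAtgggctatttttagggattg
Zfp36: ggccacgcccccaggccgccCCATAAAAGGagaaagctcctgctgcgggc
The 7-letter TGANTCA was in 0 of the 8 genes and in 7.81% of all promoters, and TATAAA was in *Fos* and *Junb* and in 13.6% of all promoters. A match of letters describes the promoter and shows no binding. Each promoter was a stretch of fixed length at the start site, and elements farther upstream were not searched. A gene without a match here is therefore not shown to lack the element.

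*Jun*, the main partner of Fos proteins, was the most abundant of the 10 genes, at 1510 and 1429 CPM in replicates 1 and 2 (1469 ± 56.8, SD, n = 2), which placed it at rank 84 of all genes. *Fos* followed at 653 and 536 CPM (595 ± 82.4, SD, n = 2), and *Ier2*, a nuclear early response gene, at 580 and 418 CPM (499 ± 115, SD, n = 2). These 3 genes made up 71.5% and 69.6% of the summed level of the 10 genes, which was 3837 and 3422 CPM in replicates 1 and 2.

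The remaining 7 genes were lower. *Jund*, the Jun member known for steady expression, was at 284 and 344 CPM (314 ± 42.9, SD, n = 2). *Egr1*, a zinc finger transcription factor, was at 268 and 127 CPM (198 ± 99.3, SD, n = 2). *Junb* was at 139 and 216 CPM (177 ± 55.0, SD, n = 2). Of these, *Egr1* and *Junb* overlapped between the libraries, while *Jund* was above both in each library. *Zfp36*, whose protein binds AU-rich elements and hastens decay of the mRNAs that carry them, was at 130 and 97.0 CPM (114 ± 23.6, SD, n = 2). *Fosb* was at 114 and 104 CPM (109 ± 7.37, SD, n = 2). *Atf3*, a stress-induced partner of Jun proteins, was at 76.6 and 98.5 CPM (87.5 ± 15.5, SD, n = 2). *Ier3*, an early gene linked to cell survival, was the lowest at 82.4 and 51.4 CPM (66.9 ± 21.9, SD, n = 2), at rank 3136 of all genes. In this order, the library values of *Fos* and *Ier2*, of *Egr1* and *Junb*, of *Zfp36* and *Fosb* and of *Atf3* and *Ier3* overlapped, as did those of *Egr1* and *Zfp36* and of *Zfp36* and *Atf3*. In replicate 2 *Atf3* was above *Zfp36*. The order within these pairs was not resolved, and it was not tested.

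**Figure D1:**
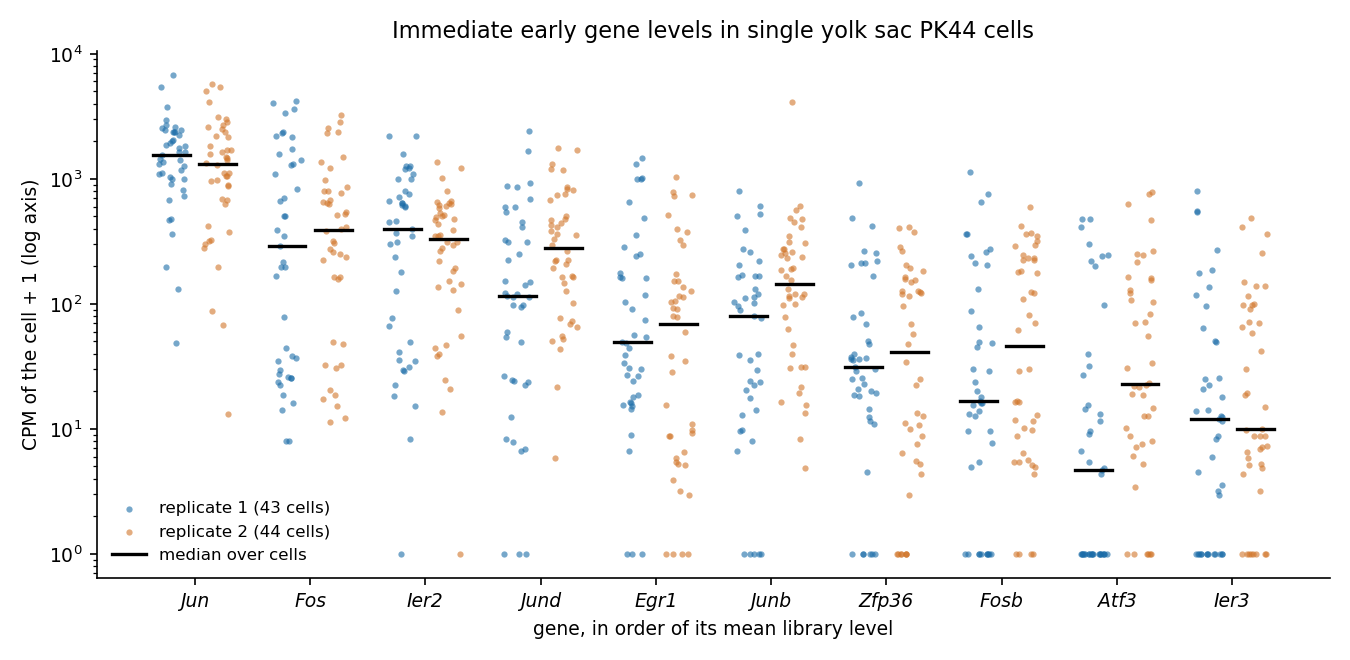
Level of each gene in each of the 87 cells (vertical log axis, CPM + 1), with genes ordered by mean library level, replicate 1 in blue, replicate 2 in orange and the median over cells as a bar. *Jun* was above 0 in all cells with medians of 1560 and 1313 CPM, while *Fos* left a gap below its median and *Atf3* and *Ier3* had many cells at 0.

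Over single cells, *Jun* and *Fos* had a count in all 87 cells (100%, exact 95% interval 95.8 to 100%; intervals of this kind cover counting error only). *Ier2* had a count in 85 cells, *Jund* in 84, *Junb* in 82 and *Egr1* in 80. *Zfp36* (74 cells), *Fosb* (73), *Ier3* (66) and *Atf3* (61 cells, 70.1%, interval 59.4 to 79.5%) were found less widely. Detection moved with depth: in the 86 cells that could be thinned to 20000 counts, *Jun* was found in 84, *Ier2* in 76, *Fos* in 70, *Atf3* in 35 and *Ier3* in 34. A cell without a count of a low gene is therefore not shown to lack its mRNA. All 10 genes had a count in 15 cells of replicate 1 and in 27 cells of replicate 2, and the median cell had 9 and 10 of them.

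*Fos* was split over the cells. In replicate 1 *Fos* ran from 7.01 CPM through a median of 286 CPM to 4205 CPM. In replicate 2 it ran from 10.4 CPM through 388 CPM to 3249 CPM. The cells fell on either side of a gap: 16 cells of replicate 1 and 11 of replicate 2 were under 50 CPM, 26 and 33 cells were over 150 CPM, and 1 and 0 cells lay between, limits that were set after the values had been seen. The cells under 50 CPM had the higher median depth (187812 beside 120920 counts, and 365258 beside 218534 counts), and the part of depth in the gap was not tested. *Jun* was spread more evenly, from 47.6 CPM through 1560 to 6798 CPM in replicate 1 and from 12.2 through 1313 to 5716 CPM in replicate 2. It exceeded 1000 CPM in 31 and 27 cells, against 14 and 8 cells for *Fos* and 8 and 3 for *Ier2*.

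A few cells carried much of the signal of the lower genes. The 5 cells with the most *Ier3* counts held 72.8% and 51.9% of all its counts in the 2 libraries, and those of *Atf3* held 69.4% and 49.2%. For *Jun* the share was 32.1% and 34.5%. The coefficient of variation of CPM over cells was lowest for *Jun*, at 0.74 and 0.86. Its median over the 10 genes was 1.61 and 1.22. For the 3661 genes with a count in at least 50% of the cells of each library it was 1.72 and 1.18. As a group the 10 genes varied about as much as other genes detected this widely, which were not matched to them on level. Single cells also differed in which gene was high. *Junb* reached 4124 CPM in 1 cell of replicate 2 whose summed level was 11707 CPM and whose *Jun* level was 1575 CPM, while the cell of the next highest summed level in that library had 5716 CPM of *Jun*, 3249 CPM of *Fos* and 14.4 CPM of *Junb*. In replicate 1 the highest cell, at 13887 CPM summed, had 6798 CPM of *Jun*, 3586 CPM of *Fos*, 2391 CPM of *Jund* and no count of *Fosb*. The lowest summed levels were 281 and 180 CPM in replicates 1 and 2, and cell medians were 3574 and 3420 CPM.

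Within the AP-1 families 1 gene led each. *Jun* gave 78.1% and 71.8% of the counts of *Jun*, *Junb* and *Jund* in the 2 libraries and was the highest of the 3 in 42 of 43 and 39 of 44 cells. *Jund* led in 1 and 3 cells and *Junb* in 0 and 2. *Fos* gave 85.1% and 83.8% of the counts of *Fos* and *Fosb*. The summed level of the 3 Jun genes was above that of the 2 Fos genes in 32 cells of replicate 1 and 39 of replicate 2, and *Fos* alone was above *Jun* in 9 and 7 cells. The 2 family sums were weakly related over cells, with a Spearman correlation of 0.27 in replicate 1 and 0.43 in replicate 2. Correlations over cells here and below are descriptions over 43 and 44 cells that share a library and differ in depth, and no p was attached to them.

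**Figure D2:**
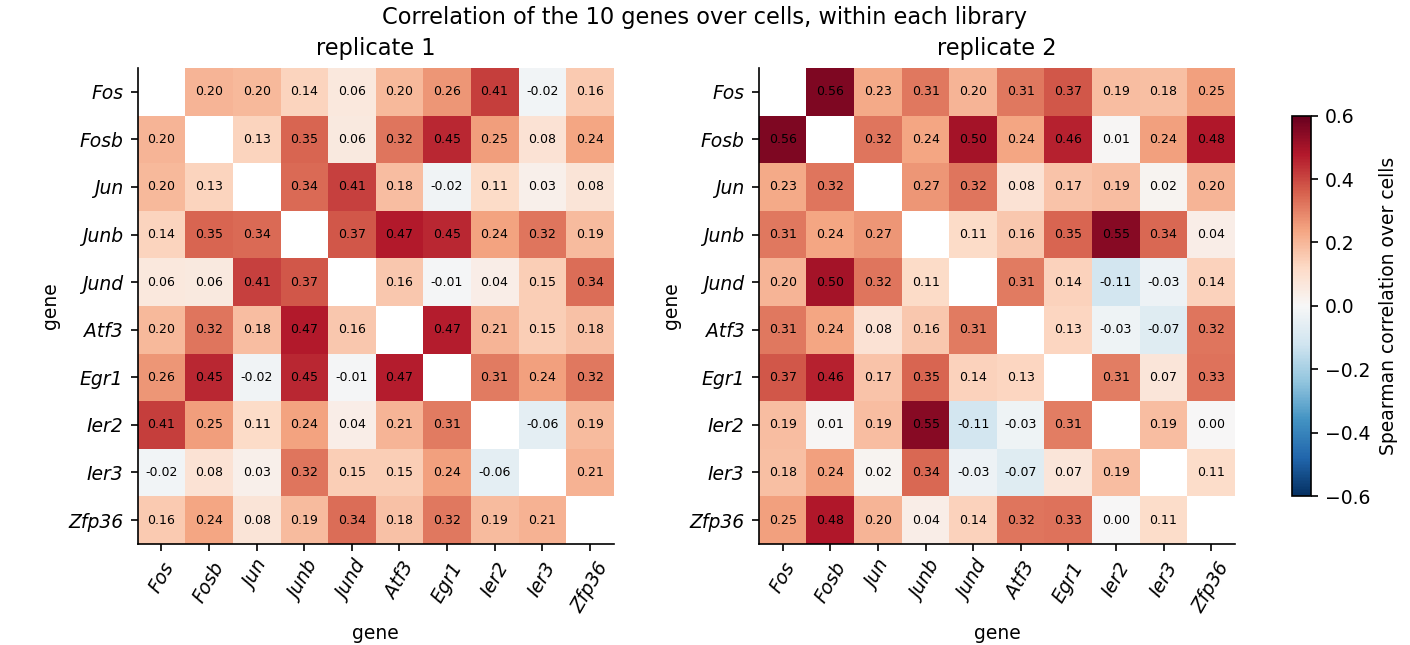
Spearman correlation of CPM over cells for each pair of the 10 genes, replicate 1 (43 cells) on the left and replicate 2 (44 cells) on the right, with colour running from -0.6 (blue) to 0.6 (red). Of 45 pairs, 41 were above 0 in each library, and *Fosb* with *Egr1* was at 0.45 and 0.46.

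The 10 genes varied together to a modest degree. Of their 45 pairs, 37 had a correlation above 0 in both libraries, and the median was 0.20 in each library (0.195 and 0.205), beside 0.08 and 0.03 for pairs of all genes with a count in at least 50% of the cells. At a depth of 20000 counts per cell the medians were 0.18 and 0.17. Only 6 pairs passed 0.3 in both libraries, and *Egr1* was in 4 of them. *Fosb* with *Egr1* had the highest pair of values, 0.45 and 0.46, followed by *Junb* with *Egr1* at 0.45 and 0.35. *Egr1* with *Zfp36* was at 0.32 and 0.33, and *Egr1* with *Ier2* at 0.31 and 0.31. The others were *Jun* with *Jund* at 0.41 and 0.32 and *Junb* with *Ier3* at 0.32 and 0.34. With thinned cells *Fosb* with *Egr1* (0.40 and 0.38), *Jun* with *Jund* (0.45 and 0.31) and *Egr1* with *Ier2* (0.45 and 0.34) were above 0.3 in both libraries. *Junb* with *Egr1* (0.31 and 0.22), *Junb* with *Ier3* (0.06 and 0.29) and *Egr1* with *Zfp36* (0.24 and -0.05) were not. *Fos* with *Jun*, the classical AP-1 pair, was at 0.195 and 0.228, near the median of the 45 pairs.

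Some pairs had unlike values in the libraries. *Fos* with *Fosb* was at 0.20 in replicate 1 and 0.56 in replicate 2, and *Fosb* with *Jund* at 0.06 and 0.50. *Junb* with *Ier2*, which lie 311632 bp apart on chromosome 8, was at 0.24 and 0.55. In the opposite direction, *Atf3* with *Junb* was at 0.47 and 0.16, and *Atf3* with *Egr1* at 0.47 and 0.13. Whether these pairs differed between the libraries was not tested. Each gene was also set against the sum of the other 9. *Fosb* had the highest value in replicate 2, 0.60, with 0.33 in replicate 1, *Fos* was at 0.39 and 0.48, and *Ier3* was least like the rest at 0.06 and 0.14.

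Depth was related to the 10 genes differently in the libraries. In replicate 1, 8 of 10 genes had a positive Spearman correlation with the depth of the cell (median 0.25, all genes 0.24), and in replicate 2, 2 of 10 had one (median -0.14, all genes 0.11). Without the shallowest 25% of cells the medians of the 10 genes were 0.08 and -0.11. *Atf3* was at 0.45 and 0.07, *Zfp36* at 0.42 and -0.04 and *Fosb* at 0.26 and -0.45. *Fos* was negative in both, at -0.25 and -0.30. The summed level was at -0.06 in replicate 1 and -0.37 in replicate 2, so in replicate 2 the shallower cells had the higher share of these transcripts.

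Both libraries are replicates of 1 group, so their ratio has no test, and intervals on it are exact 95% counting intervals of 1 library against 1. *Egr1* was the only one of the 10 past 2-fold, being 2.103-fold higher in replicate 1 (1.97 to 2.24). Over all 8727 genes with a mean of at least 10 CPM, 12.1% were over 2-fold higher in replicate 1 and 14.8% in replicate 2, so 1 in 10 was near the background. *Ier3* was 1.603-fold higher in replicate 1 (1.44 to 1.78) and *Junb* 1.56-fold higher in replicate 2 (1.46 to 1.67). *Jun* differed least, at 1.06-fold (1.03 to 1.08). In all, 3 of 10 genes (*Junb*, *Jund*, *Atf3*) were higher in replicate 2. The median log2 ratio of replicate 2 over replicate 1 was -0.21 for the 10 genes, beside 0.01 over the 8727 genes.

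The library ratio depended on how cells were weighted. Without its highest cell in each library *Egr1* had a log2 ratio of replicate 2 over replicate 1 of -1.07, as with all cells. Medians over cells put *Egr1* at 48.7 and 68.1 CPM in replicates 1 and 2, the reverse of the sums, and its 5 highest cells held 58.0% and 51.8% of its counts in the 2 libraries. By medians *Fosb* (15.6 and 44.6 CPM), *Jund* (115 and 280 CPM) and *Atf3* (3.66 and 22.002 CPM) were over 2-fold higher in replicate 2. The *Atf3* median of replicate 1 lay below the worth of 1 count at the median depth, and depth was higher in replicate 2.

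**Figure D3:**
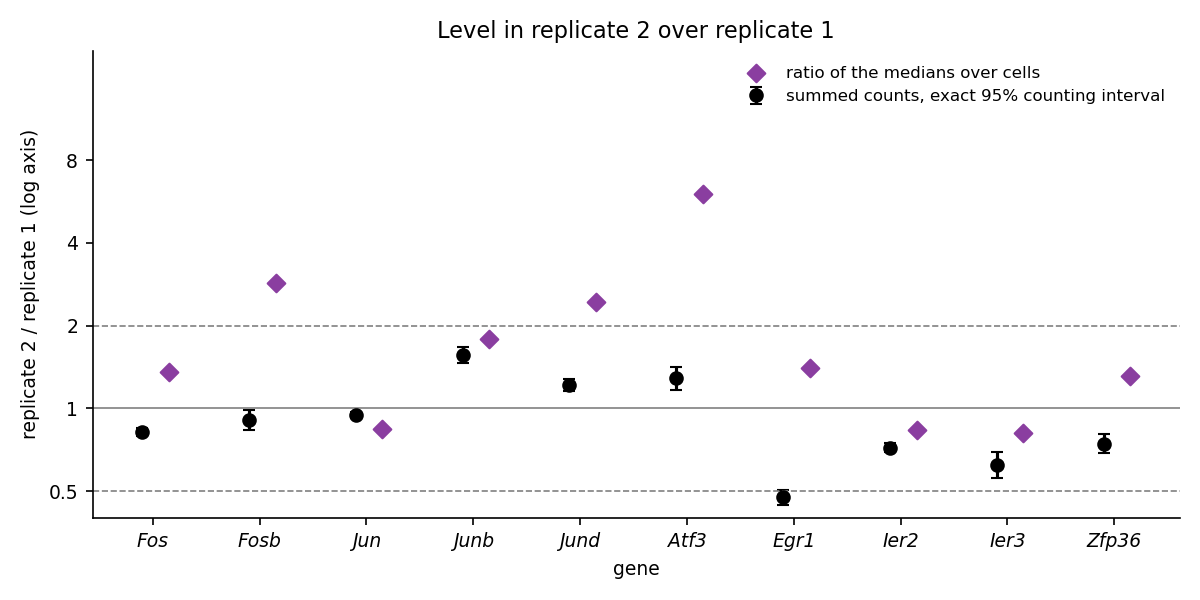
Level in replicate 2 over replicate 1 (log axis) for each gene, from summed counts (black, with exact 95% counting intervals) and as the ratio of the medians over cells (purple), with dashed lines at 2-fold. *Egr1* was below the lower line by sums, at 2.103-fold higher in replicate 1, but above 1 by medians.

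The relation to *Runx1* asks whether the early genes differ with the state of the cell on the way from endothelium to blood. *Runx1* itself was at 300 and 136 CPM (218 ± 116, SD, n = 2), with a count in 68 of 87 cells. Over the cells of replicate 1, 9 of 10 genes had a positive Spearman correlation with *Runx1*, and over those of replicate 2 only *Junb* did (0.24 and 0.03). The median was 0.21 in replicate 1 and -0.06 in replicate 2, beside 0.12 and 0.11 over all genes. *Zfp36* was at 0.42 and -0.06, *Ier3* at 0.35 and -0.05 and *Ier2* at 0.33 and -0.04. *Fos* was negative in both libraries, at -0.07 and -0.27. The summed level was at 0.22 and -0.35, with the same signs after thinning (0.28 and -0.38) and without the shallowest 25% of cells (0.37 and -0.18).

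**Figure D4:**
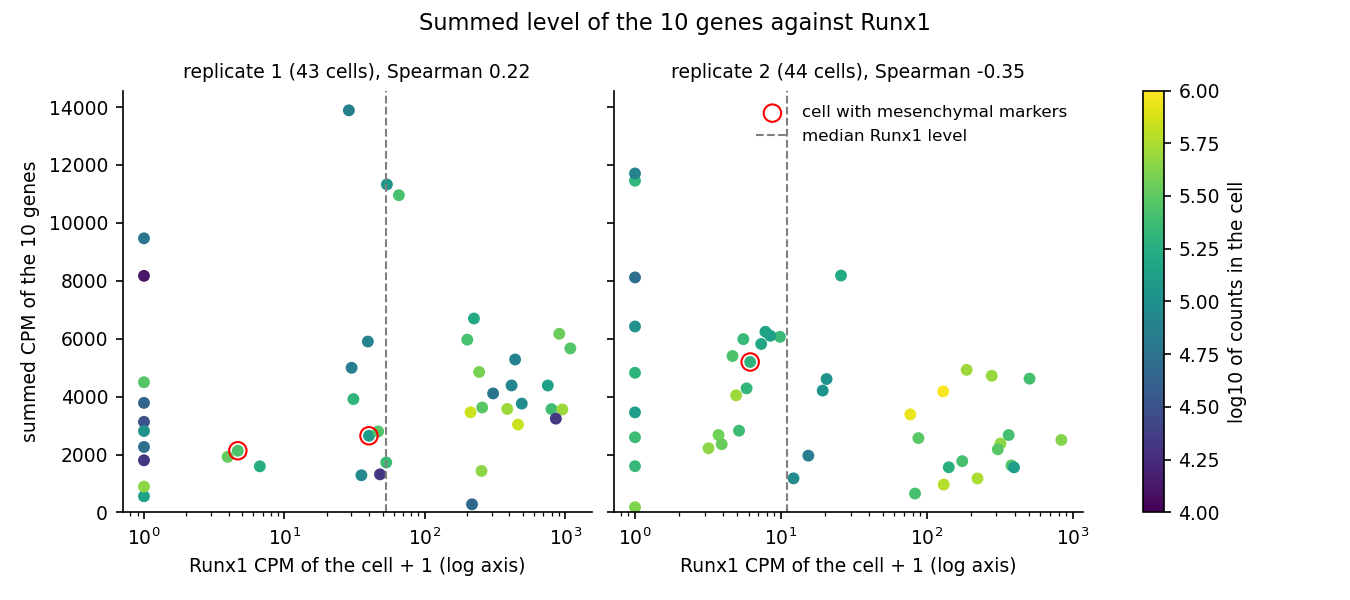
Summed CPM of the 10 genes against *Runx1* CPM + 1 (log axis) in each cell, replicate 1 on the left and replicate 2 on the right, coloured by log10 depth, with the median *Runx1* level dashed and 3 cells with mesenchymal markers circled in red. The Spearman correlation was 0.22 in replicate 1 and -0.35 in replicate 2.

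Cells above the median *Runx1* level of their own library (Runx1-high, 21 and 22 cells) were then summed and set against the rest (Runx1-low, 22 and 22 cells). The limits were 52.2 and 10.03 CPM, with 7 cells of replicate 1 and 5 of replicate 2 within 1.5-fold of them. At the median depth 1 count was worth 7.06 and 4.19 CPM, so in replicate 2 the side of a cell near the limit rested on a few counts. There a Runx1-high cell of 69343 counts was at 14.4 CPM and a Runx1-low cell of 225885 counts at 8.85 CPM. The split was therefore not alike in the libraries, and its part in their opposite directions was not tested. Runx1-high cells were deeper: their median depth was 260240 counts, beside 95376 for Runx1-low cells, in replicate 1, and 271734 beside 213444 in replicate 2. The summed level of the 10 genes was higher in Runx1-high cells of replicate 1, at 4396 against 2822 CPM, and lower in those of replicate 2, at 2951 against 4124 CPM. Its cell values overlapped widely, from 281 to 11328 CPM in Runx1-high and from 558 to 13887 CPM in Runx1-low cells of replicate 1.

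*Zfp36* was the only gene higher in the Runx1-high sums of both libraries, at 186 against 29.6 CPM in replicate 1 and 107 against 81.5 CPM in replicate 2. Its log2 fold change was 1.38 (SE 0.64) and did not pass the test (edgeR quasi-likelihood, adjusted p = 0.880). In replicate 1 the median cell was at 20.4 CPM (0 to 211) in Runx1-low and 49.6 CPM (0 to 917) in Runx1-high cells, and in replicate 2 it was 122 CPM (0 to 401) in Runx1-low and 16.6 CPM (0 to 411) in Runx1-high cells. Groups of cells overlapped in both libraries. Without the cell of the most *Zfp36* counts in each library, the sums were 157 against 29.6 CPM in replicate 1 and 73.3 against 81.5 CPM in replicate 2, so the direction in replicate 2 rested on 1 cell.

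*Ier2* was higher in the Runx1-high sum of replicate 1, at 781 against 217 CPM, and not in that of replicate 2, at 388 against 462 CPM (log2 fold change 0.77, SE 0.49, edgeR adjusted p = 0.971). Without the cell of the most *Ier2* counts in each library, the sums were 737 against 217 CPM in replicate 1 and 388 against 379 CPM in replicate 2, so the direction in replicate 2 rested on 1 cell here too. *Junb* was higher in replicate 1 only, at 179 against 65.9 CPM and at 204 against 235 CPM. The sums of *Fos* and *Egr1* had opposite directions in the libraries. *Fos* was at 754 against 471 CPM in replicate 1 and at 368 against 787 CPM in replicate 2. By medians over cells *Fos* was lower in Runx1-high cells of both, at 195 against 368 CPM and at 269 against 586 CPM. *Egr1* was at 308 against 195 CPM in replicate 1 and at 71.7 against 210 CPM in replicate 2. *Jun* was at 1572 against 1397 CPM and at 1301 against 1620 CPM. *Atf3* was the only gene lower in the Runx1-high sums of both libraries, at 72.4 against 84.2 CPM and at 78.9 against 128 CPM. It did not pass the test (log2 fold change -0.51, SE 0.54, edgeR adjusted p = 0.9995). In replicate 1 its median over cells went the other way, at 5.70 CPM in Runx1-high and 0 CPM in Runx1-low cells. It had a count in 13 of 21 and 10 of 22 of these cells. In replicate 2 the medians were 15.7 against 51.2 CPM.

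Counted by sums within libraries, 9 of 10 genes were higher in Runx1-high cells of replicate 1 and 1 of 10 in those of replicate 2. The median log2 ratio of the 10 genes was 0.67 and -0.44. Over all 8726 genes with a mean of at least 10 CPM in the 4 sums, it was 0.04 and 0.03. Without the cell of the most counts of each gene, 8 of 10 were higher in replicate 1, where *Fosb* turned to 82.1 against 84.8 CPM, and 1 of 10 in replicate 2, which was then *Ier2*. Past 2-fold there were 3 higher (*Junb*, *Ier2*, *Zfp36*) and 0 lower in replicate 1, where 24.9% and 22.8% of 8726 genes were, and 0 higher and 2 lower (*Fos*, *Egr1*) in replicate 2, where 16.7% and 16.9% of genes were. Across both libraries, 0 of 10 genes passed an adjusted p of 0.05 (edgeR quasi-likelihood test on the 4 sums) and 0 had an unadjusted p under it, beside 0.00941% and 5.54% of the 10630 genes tested. With the library as a block 0 of 10 genes passed, beside 1.57% of all genes. At an unadjusted p under 0.05 there were 2 of 10, beside 8.67% of all genes. These were *Zfp36* (log2 fold change 1.48, edgeR adjusted p = 0.297) and *Ier2* (0.76, edgeR adjusted p = 0.438). With DESeq2 0 of 10 passed, beside 138 of 10645 genes. There 1 of 10, *Zfp36*, had an unadjusted p under 0.05, beside 8.48% of all genes. The test had little reach on simulated counts of 11199, 11111 and 11261 genes, drawn with 1 common dispersion of these sums. It recovered 0%, 1% and 52.3% of genes changed by 2, 4 and 6 on the log2 scale. With the block the shares were 0%, 0.5% and 21.6%. The simulation held no library effect and no gene-wise dispersion, so the reach on the real sums may differ. *Runx1* itself, on which the cells were split, had a log2 fold change of 5.17 and an adjusted p of 0.262 by edgeR. The 1 gene that passed was *Col1a1*, a collagen of mesenchymal cells (log2 fold change -5.66, edgeR adjusted p = 0.0332).

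**Figure D5:**
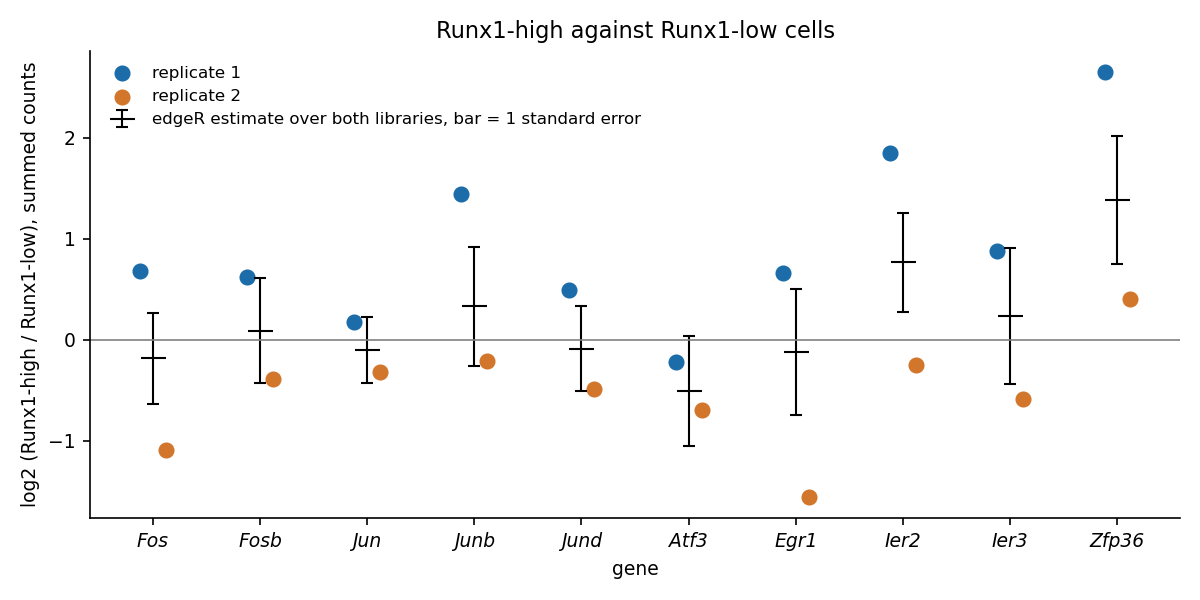
Log2 ratio of Runx1-high over Runx1-low summed counts for each gene, in replicate 1 (blue) and replicate 2 (orange), with the edgeR estimate over both libraries (black, bar of 1 standard error). *Zfp36* was above 0 and *Atf3* below 0 in both libraries, and the other 8 genes were above 0 in replicate 1 and below it in replicate 2.

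Markers of cell types moved with the split. The 6 endothelial markers, all at 10 CPM or more, summed to 1175 CPM in Runx1-high against 2681 CPM in Runx1-low cells of replicate 1 and to 2058 against 3572 CPM in replicate 2. The 8 hematopoietic genes used by the study, *Runx1* among them, were at 1720 against 652 CPM and 1030 against 115 CPM. Of these sums *Runx1*, on which the cells were split, gave 457 against 15.8 CPM and 226 against 2.94 CPM. That part of the difference was set by the split. Over cells, the summed level of the early genes had a Spearman correlation with the 6 endothelial markers of 0.29 and 0.29. With the 15 endothelial genes used by the study it was 0.17 and 0.19, and with the hematopoietic genes 0.14 and -0.12. The 5 mesenchymal markers were at 48.4 against 2250 CPM in replicate 1 and 23.3 against 786 CPM in replicate 2. There were 3 Runx1-low cells, 2 of replicate 1 and 1 of replicate 2, that had at least 100 counts each of *Col1a1*, *Col1a2*, *Col3a1* and *Lum*. These cells had summed early gene levels of 2647, 2131 and 5196 CPM, within the range of the others, and without them 0 of 10 genes and 0 of 10497 genes passed. The 6 macrophage markers were at 127 against 323 CPM and 189 against 200 CPM with *C1qa* and *C1qb* at 0. Most of this sum was *Mrc1*, at 125 and 162 CPM in replicates 1 and 2, and *Lyz2*, at 64.1 and 27.5 CPM. *Csf1r* was at 5.60 and 0.55 CPM, so the sum does not stand for the whole list. The erythroid markers were at no more than 27.0 CPM, *Hba-a1* and *Hba-a2* being among those at 0, and the 5 visceral endoderm markers at no more than 19.5 CPM with *Apob* and *Alb* at 0. The part of these cell types in the *Runx1* values was not tested.

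Other genes of the same response were taken from 4 lists. Genes of a list past 2-fold between the libraries are counted among its genes of at least 10 CPM, and over all 8727 such genes 12.1% were past 2-fold in replicate 1 and 14.8% in replicate 2. Of 43 further immediate early and early response genes, 37 had at least 10 CPM and *Nr4a3* was at 0. The highest were *Hes1*, a Notch target, at 1113 and 1175 CPM, *Klf6* at 521 and 542 CPM and the antiproliferative gene *Btg2* at 335 and 429 CPM. Over 2-fold higher in replicate 1 were 7 of the 37 genes (*Egr3*, *Nr4a1*, *Nr4a2*, *Gadd45b*, *Per1*, *Dusp2*, *Nfkbiz*) and in replicate 2 there were 3 of 37 (*Ier5l*, *Socs3*, *Nfkbia*). In the *Runx1* comparison 0 of 41 tested passed, with or without the block. The summed level of this list followed that of the 10 genes over cells, with a Spearman correlation of 0.60 in replicate 1 and 0.59 in replicate 2. For single genes of the list found in at least 50% of the cells, 24 in number, the median was 0.21 and 0.27, beside -0.01 and -0.04 over all genes detected this widely.

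Of 25 other AP-1 and bZIP partner genes, 18 had at least 10 CPM and *Fosl1* was at 0. By mean level the highest was *Maf* at 124 and 226 CPM, followed by *Atf4*, a factor of the integrated stress response, at 128 and 145 CPM and *Nfe2l1* at 119 and 130 CPM, so each was below *Jun*, *Fos*, *Ier2* and *Jund*. Over 2-fold higher were 1 of the 18 in replicate 2 (*Mafg*) and 3 in replicate 1 (*Atf2*, *Bach1*, *Cebpb*). In the *Runx1* comparison 0 of 22 passed by edgeR, and 1 with the block, *Maf*, which was lower in Runx1-high cells, at 58.3 against 245 CPM in replicate 1 and 172 against 306 CPM in replicate 2 (edgeR with block, log2 fold change -1.48, SE 0.43, adjusted p = 0.0408). The list's summed level had a correlation with that of the 10 genes of 0.24 and 0.54.

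Of 22 SRF, Elk and MAP kinase genes upstream of these promoters, 20 had at least 10 CPM. *Nras* was at 255 and 178 CPM, the kinase gene *Map2k2* at 210 and 197 CPM and *Elk3*, a partner of SRF, at 166 and 224 CPM. Over 2-fold higher were 5 of the 20 in replicate 1 (*Srf*, *Mkl1*, *Mkl2*, *Mapk14*, *Hras*) and 1 in replicate 2 (*Mapk3*). Of 21 tested against *Runx1*, 0 passed with or without the block, and the summed level had a correlation with that of the 10 genes of 0.30 and 0.19. All 18 heat shock and dissociation stress genes had at least 10 CPM, with the chaperone genes *Hsp90ab1* at 6478 and 4807 CPM and *Hspa8* at 3357 and 2152 CPM, with *Hsph1* over 2-fold higher in replicate 1 and *Bag3* in replicate 2. None of the 18 passed against *Runx1* with or without the block, and their summed level had a correlation with that of the 10 genes of 0.14 and 0.27, both below the value of the immediate early list in the same library. At an unadjusted p under 0.05 without the block, the counts were 1 of 41, 1 of 22, 0 of 21 and 0 of 18, in the order of the lists above. Over all 10630 genes tested the share was 5.54%.

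Among 3651 other genes found in at least 50% of the cells of each library, those whose level over cells was most like the summed level of the 10 genes were ranked by the smaller of the 2 within-library Spearman correlations. First was *Cyr61*, a secreted matricellular protein gene that is itself an early response gene, at 0.43 in replicate 1 and 0.44 in replicate 2 and with 137 CPM on average. The nuclear RNA *Malat1* (0.41 and 0.46) and *Id1*, a BMP target (0.38 and 0.42), came next. Then came the basement membrane genes *Col4a1* (0.41 and 0.34) and *Hspg2* (0.35 and 0.33). *Dusp1*, a MAP kinase phosphatase gene of the early response, was at 0.33 and 0.32, and *Rhob*, an early-induced small GTPase gene, at 0.32 and 0.53. The last of the 10 were *Vwf*, an endothelial gene (0.32 and 0.32), *Utrn* (0.32 and 0.37) and *Clk1* (0.31 and 0.34). At a depth of 20000 counts per cell *Cyr61* was at 0.36 and 0.48, *Hspg2* at 0.16 and 0.25 and *Vwf* at 0.33 and 0.18.

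By GENCODE M21 on GRCm38, *Fosb* and *Zfp36* lie on chromosome 7, *Junb*, *Jund* and *Ier2* on chromosome 8, *Atf3* on chromosome 1, *Jun* on chromosome 4, *Fos* on chromosome 12 and *Ier3* on chromosome 17. *Jun*, *Jund* and *Ier2* have a single exon. An annotated gene overlaps on the opposite strand for *Jun* (*Junos*), *Junb* (*Prdx2*), *Jund* (*Gm11175*), *Atf3* (*Gm24748*) and *Zfp36* (*Gm44710*). The strand setting of the counting was not given in the sources used here, so reads of these partners cannot be told apart.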

How the data were processed

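Yolk sac PK44 cells of 2 libraries were measured by modified STRT-seq. The authors trimmed the reads, mapped Read 1 with HISAT2 2.1.0 to the transcriptome of mm10, counted uniquely mapped reads with HTSeq and removed duplicates by UMI, and they had already removed cells of low quality, so the deposited values are raw counts per gene and cell. The counts themselves do not show how complete this removal was. Cell barcode tables were not used, and 0 columns of other samples were present. All 87 cells were kept, no doublet caller was run on these singly picked cells, and the libraries shared 0 well numbers. The members, the gene lists and the tests were chosen with earlier results of these data known, and named genes were the 10 members, *Runx1*, the 3 highest genes of each list, genes of a list that passed a test or a 2-fold limit, and the 10 genes most like the summed level.

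Cell and library CPM, Spearman correlations within a library, and thinning to 20000 counts (which left out 1 cell of replicate 1) were computed in Python 3.11.15 (scipy 1.17.1, numpy 2.4.6, pandas 2.3.3). Figures were drawn in matplotlib 3.10.9. Runx1-high and Runx1-low counts were summed per library into 4 sums. The quasi-likelihood test of edgeR 4.0.16 (R 4.3.3) was run on them after TMM scaling and filterByExpr, with p-values adjusted by Benjamini-Hochberg over 10630 genes and a threshold of 0.05, without a block, since the study's methods name none. The 2 sums of a library share that library, which pairs them, and their deviations correlated at 0.20 over 10630 genes. Alternatives were the library block, DESeq2 1.42.0, no TMM, no low-count filter, other splits and cells, and each library left out. Tests were tried on simulated counts with 200 changed genes and the common dispersion of the 4 sums, without a library effect. Of 23154 symbols, 22127 (95.6%) were found in GENCODE M21. The value of 1 marker gene is not reported here.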

Additional observations from a re-analysis of the deposited data

How the results depend on the processing

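None of the 10 genes passed the *Runx1* test in any alternative setting. These settings gave 70 fold changes, 1 per gene and setting, of which 63 kept the direction. The number of genes passing was 1 as reported, 167 with the replicate block, 138 with DESeq2, 68 without the low-count filter, and 0 with any count of *Runx1* as the limit, with thinned cells, or without the 3 mesenchymal cells, a setting chosen after seeing the data. With any count as the limit, log2 fold changes turned to -0.054 for *Fosb*, -0.033 for *Junb* and 0.37 for *Jund*, and with thinned cells to -0.12 for *Fosb*, -0.54 for *Junb*, 0.22 for *Egr1* and -0.40 for *Ier3*. With 1 library left out, where no test is possible, log2 ratios were -1.09 to 0.68 for *Fos*, -0.39 to 0.62 for *Fosb*, -0.32 to 0.17 for *Jun*, -0.21 to 1.44 for *Junb*, -0.49 to 0.49 for *Jund*, -1.55 to 0.66 for *Egr1*, -0.25 to 1.85 for *Ier2* and -0.59 to 0.88 for *Ier3*. The cause was not tested. Between the libraries, 51 of 60 alternative log2 ratios kept their direction. Medians over cells gave 3 genes past 2-fold and turned *Egr1* to 0.48, and means over cells or thinned counts gave *Junb* as the 1 gene. The median pair correlation, 0.20 as reported, was 0.213 by Pearson's r on log2(CPM + 10), 0.174 with thinned cells, 0.248 without the shallowest 25% of cells and 0.214 without the mesenchymal cells. The summed level was 3629 CPM, and 4070 CPM as a mean over cells. At the median depth, levels under 7.06 CPM in replicate 1 and 4.19 CPM in replicate 2 were below 1 count.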

Other observations

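Of 37 early response genes outside the 10 with at least 10 CPM, 10 were past 2-fold between the libraries. These were 7 higher in replicate 1 and 3 in replicate 2, beside 12.1% and 14.8% of all 8727 genes of that level. The total past 2-fold was near this background, and the other genes of the list differed less than *Egr1* did. *Egr3*, which encodes another zinc finger factor of the *Egr1* family, had 51.4 and 1.10 CPM in replicates 1 and 2, and was found in 20 of 43 and 7 of 44 cells. A single cell held 45.5% of its counts in replicate 1, and without the highest cell of each library the levels were 29.3 and 0.72 CPM. *Nr4a1*, an early-induced nuclear receptor gene, was at 427 and 132 CPM, and at 316 and 117 CPM without the highest cell of each library. *Nr4a2* was at 59.0 and 17.7 CPM, with a count in 11 cells of each library. *Dusp2*, a phosphatase gene of MAP kinases, was at 154 and 52.7 CPM. In the opposite direction *Socs3*, a feedback inhibitor of cytokine signalling, had 7.16 and 25.5 CPM, with counts in 4 of 43 and 26 of 44 cells. *Ier5l* rested on 1 cell of replicate 1, which held 100% of its counts there, and was found in 11 cells of replicate 2. These genes were chosen for their ratio after the values had been seen, and 1 library against 1 allows no test.

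These genes were also set against *Egr1* over the cells of each library, and cells high in more than 1 of them were not counted. *Egr3*, whose median over cells was 0 in both libraries, had a Spearman correlation of 0.44 in replicate 1 and 0.29 in replicate 2. *Nr4a1* was at 0.39 and 0.38. *Nr4a2* was at 0.34 and -0.03, and *Dusp2* at 0.17 and 0.19.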
